A study of Homo sapiens with 3 samples.

Results

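Binding of the vitamin D receptor (VDR) was examined at 3 genes for nuclear regulators of blood cells, MYB, HLX and IRF2BP2, in the human monocytic leukaemia cell line THP-1. The members are all deposited VDR peaks that share at least 1 bp with a window of 150 kb to each side of these genes' start sites, which are known here to 1 kb on hg19: 135.502 Mb on chromosome 6 for MYB, and 221.053 and 234.745 Mb on chromosome 1 for HLX and IRF2BP2. The windows hold 7 of the 1169 peaks of the unstimulated list and 12 of the 1820 peaks of the calcitriol list. The genes were selected on the width of their peaks in these same lists. Widths, strings, classes, covered lengths and width gains below are therefore descriptions without a test.

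The study compared 2 VDR chromatin immunoprecipitation sequencing (ChIP-seq) libraries: unstimulated cells, and cells given 10 nM calcitriol (1α,25(OH)2D3, the active form of vitamin D) for 40 min. Before this, both cultures had spent a night in medium free of phenol red with charcoal-stripped serum, and each library pooled 5 immunoprecipitations. The remaining sample, immunoprecipitated with non-specific IgG, was not analysed here. The lists give positions alone, so depth and peak height are unknown, replicate error cannot be estimated from 1 library per condition, and the identity of the cells cannot be checked against markers.

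VDR is a nuclear receptor that usually binds DNA together with a retinoid X receptor, at a direct repeat of hexamer half-sites, and part of it is on chromatin before ligand arrives. Calcitriol is known to push myeloid leukaemia cells towards a monocyte or macrophage fate. MYB encodes c-Myb, a transcription factor that keeps haematopoietic progenitors immature and proliferating. HLX encodes a homeobox transcription factor of haematopoietic cells, and IRF2BP2 encodes a corepressor that partners interferon regulatory factor 2. MYB and HLX are read in the direction of rising coordinates and IRF2BP2 in the opposite direction.

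The promoters of the 3 genes are shown because peaks lie on or near their start sites. Over the 250 bases before the nominal hg19 start site, calcitriol peaks covered all 250 bp at MYB, where unstimulated peaks covered 0 bp. At IRF2BP2 peaks of both lists covered all 250 bp, and at HLX peaks of neither list reached them. With the start sites moved by 500 bp, the calcitriol coverage at MYB fell to 0 bp at the lower position, where MYB no longer differed from HLX, and at IRF2BP2 the unstimulated coverage was 31 bp and the calcitriol coverage 240 bp at the higher one. HLX stayed at 0 bp at both. Coverage of the printed bases themselves was not determined, since they come from another build. The sequences are the 250 bases upstream of each start in RefSeq on GRCh38.p14, in the direction of transcription, with CG dinucleotides in capitals. Their coordinates belong to that build and not to the hg19 positions of the peaks. All 3 genes were found in the promoter table by symbol. The MYB promoter (chr6:135181058-135181307, + strand), the HLX promoter (chr1:220879193-220879442, + strand) and the IRF2BP2 promoter (chr1:234610179-234610428, - strand) read:
MYB: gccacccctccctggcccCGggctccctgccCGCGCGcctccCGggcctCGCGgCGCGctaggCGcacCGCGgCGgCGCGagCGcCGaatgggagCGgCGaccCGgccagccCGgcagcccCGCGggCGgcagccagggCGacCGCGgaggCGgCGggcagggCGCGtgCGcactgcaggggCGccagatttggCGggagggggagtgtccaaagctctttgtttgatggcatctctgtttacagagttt
HLX: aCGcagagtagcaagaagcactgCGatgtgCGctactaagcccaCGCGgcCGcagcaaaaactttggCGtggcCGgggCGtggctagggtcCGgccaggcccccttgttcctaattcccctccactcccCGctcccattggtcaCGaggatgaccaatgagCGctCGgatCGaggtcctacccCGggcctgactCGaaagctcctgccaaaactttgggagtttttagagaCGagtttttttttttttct
IRF2BP2: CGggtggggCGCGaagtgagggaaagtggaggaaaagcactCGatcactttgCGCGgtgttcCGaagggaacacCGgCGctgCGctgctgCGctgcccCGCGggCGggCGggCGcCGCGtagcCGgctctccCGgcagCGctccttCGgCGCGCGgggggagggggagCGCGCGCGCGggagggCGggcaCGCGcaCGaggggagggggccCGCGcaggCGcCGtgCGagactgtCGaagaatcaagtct

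The MYB and IRF2BP2 promoters are rich in CG, with 34 and 40 CG dinucleotides and a GC content of 75.6% and 74.4%. The HLX promoter has 18 CG dinucleotides and a GC content of 57.2%. The medians over the 35116 promoters of the table were 11 CG dinucleotides and 58.0% GC. The half-sites AGGTCA or AGTTCA or GGGTCA or GGTTCA were searched on both strands, alone and as a direct repeat with 3 bases between the hexamers. None of the 3 promoters held a half-site, which 33.8% of all promoters did. None held the repeat, which was present in 0.0655% of all promoters, or held it with 1 mismatch, as 1.20% of all promoters did. Most promoters of the table lack a half-site and nearly all lack the repeat, so these absences are not particular to the 3 genes. They are stated for the printed promoter sequences only. The sequence under the peaks outside these promoters was not analysed here.

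At MYB, VDR peaks covered a stretch just inside the gene before ligand, and after calcitriol this stretch reached back to the start site. The unstimulated list held 2 peaks 10 bp apart on chromosome 6, from 135503201 to 135504231 (1030 bp) and from 135504241 to 135505631 (1390 bp). They ran from 1.20 to 3.63 kb downstream of the start. The calcitriol list also held a string of 2 peaks. Its wide piece, 135502741 to 135505931 (3190 bp), covered both unstimulated peaks from end to end. The other piece, 135501591 to 135502731 (1140 bp), overlapped no unstimulated peak and ran from 0.41 kb before the start to 0.73 kb after it. Its centre was 161 bp downstream of the nominal start, and moving the start site by 500 bp to either side put it at 661 or -339 bp. With the start 500 bp lower the piece began 91 bp downstream of it and no longer covered it, so whether the start itself is covered is not settled at the 1 kb to which it is known. Joined, the MYB site measured 2430 bp before and 4340 bp after ligand, 1.79 times as wide. Of the added 1910 bp, 1610 bp lay on the upstream side and 300 bp on the downstream side. The unstimulated peak at 135503201 stands in a row at or after the first break in position order on its chromosome, as 170 rows of that list do. All such rows are called out of position order here, whether or not each breaks the order itself. Without such rows the unstimulated MYB site was 1390 bp wide and the gain 2950 bp, so the size of this gain rests on that row, while the direction was the same.

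MYB also held 2 peaks found after calcitriol alone, both farther along the gene's direction. One spanned 135517621 to 135518981 (1360 bp), with its centre 16.30 kb downstream of the start. The other spanned 135536491 to 135538101 (1610 bp), with its centre at 35.30 kb. As background, MYB is a long gene of many exons whose body is known to include both places; exon and intron positions on hg19 were not used here. These distal peaks were of ordinary width: 43.8% and 63.9% of calcitriol peaks were narrower. The nearer one stood 11.7 kb from the end of the promoter-side string, and the gap between them was 17.5 kb. No peak of either list lay upstream within the window beyond the string itself. By gene order in RefSeq, the protein-coding neighbours are HBS1L on the upstream side and AHI1 on the downstream side.

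HLX had the plainest pattern, a single peak in each list, and the peaks overlapped. The unstimulated peak lay on chromosome 1 from 221054891 to 221056331 (1440 bp), 1.89 to 3.33 kb downstream of the start. The calcitriol peak ran from 221053831 to 221057111 (3280 bp), 0.83 to 4.11 kb downstream. It was deposited as 1 piece, and it was 2.28 times as wide as the unstimulated peak, which it covered whole. The 1840 bp it added were divided into 1060 bp upstream and 780 bp downstream. HLX is a short gene, and as background this stretch is known to fall within its body. Neither list placed any other peak in the window, and neither peak reached the nominal start site. Moving the start site by 500 bp to either side left both peaks wholly downstream of it.

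**Figure D1:**
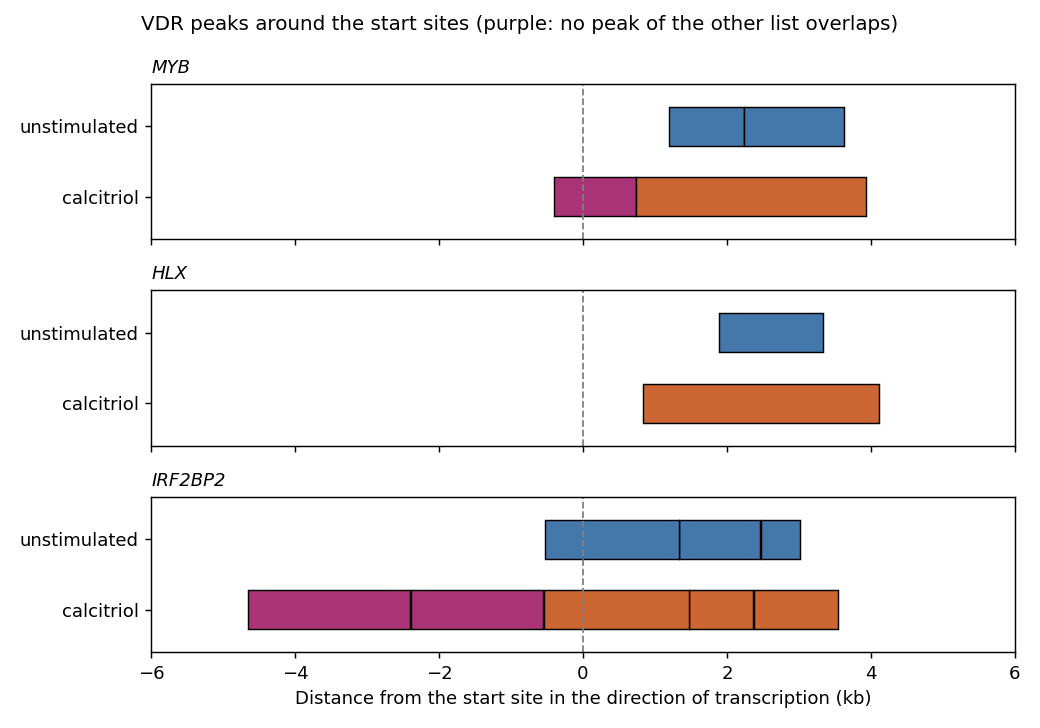
VDR peaks within 6 kb of the start sites (dashed line), with distance in the direction of transcription in kb on the x axis and a row for each list. Bars are deposited peaks, black lines their edges, and purple bars peaks that no peak of the other list overlaps: the added pieces lie at the nominal start site of MYB and upstream of IRF2BP2, and the HLX peak widened on both sides.

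IRF2BP2 carried the longest VDR site of the 3 genes in both states, and after calcitriol it was extended away from the gene. In unstimulated cells 3 peaks 10 bp apart, of 550, 1120 and 1860 bp, ran on chromosome 1 from 234741981 to 234745531. This string of 3550 bp spanned the start site, from 0.53 kb upstream to 3.02 kb downstream. In calcitriol-treated cells a string of 5 peaks, of 1170, 890, 2010, 1840 and 2260 bp, ran from 234741451 to 234749661. It measured 8210 bp, 2.31 times the unstimulated string, and reached from 4.66 kb upstream to 3.55 kb downstream. IRF2BP2 is a short gene, and the downstream part of both strings is known, as background, to lie over its body.

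The gain at IRF2BP2 lay mostly on the upstream side. The calcitriol string reached 4130 bp past the unstimulated string on the upstream side and 530 bp past it on the downstream side. The first 3 calcitriol pieces lay over the unstimulated string, and the outer 2, 234745551 to 234747391 and 234747401 to 234749661, overlapped no unstimulated peak. The outer edge of the unstimulated string, at 234745531, lay 10 bp from the break between the calcitriol piece over the start site and the next one upstream. Inside the strings the unstimulated breaks at 234742531 and 234743661 lay 90 and 140 bp from the nearest calcitriol break. Within the part that both lists cover the breaks thus lay close together, and the added pieces began where the unstimulated string ended.

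Further sites lay far from the IRF2BP2 start. The downstream one was present in both states: an unstimulated peak from 234657811 to 234658921 (1110 bp) lay inside a calcitriol peak from 234656891 to 234659431 (2540 bp). The centres were 86.63 and 86.84 kb downstream of the start, and the calcitriol peak was 2.29 times as wide, with 510 bp added on the upstream and 920 bp on the downstream side. The upstream one was found after calcitriol alone, from 234858101 to 234861341 (3240 bp), with its centre 114.72 kb upstream of the start. Unlike the distal MYB peaks it was among the widest of its list, with only 7 calcitriol peaks wider. By gene order in RefSeq, TARBP1 is the protein-coding neighbour on the downstream side and TOMM20 on the upstream side. Which gene these distal sites act on was not tested.

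**Figure D2:**
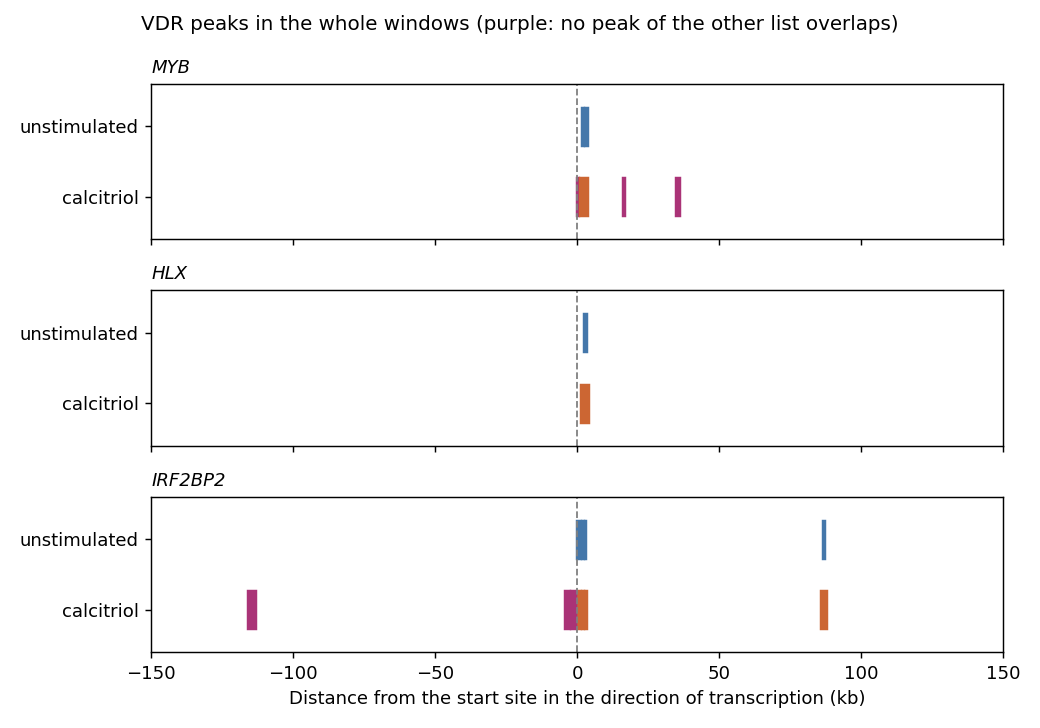
All VDR peaks of the 3 windows, with distance from the start site (dashed line) in the direction of transcription in kb on the x axis and a row for each list; purple bars are peaks that no peak of the other list overlaps. Distal calcitriol-only peaks lie at 16.30 and 35.30 kb downstream of MYB and 114.72 kb upstream of IRF2BP2, and the site 86.84 kb downstream of IRF2BP2 is in both lists.

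Over the 3 loci, all 7 unstimulated peaks met a calcitriol peak by at least 1 bp, against 62.6% of the whole unstimulated list. Of the 12 calcitriol peaks, 6 overlapped no unstimulated peak, against 60.6% of the whole list. Merged into regions, the peaks gave 4 shared, 6 calcitriol-only and 0 unstimulated-only regions. Over the 2121 regions of the series 27.4% were shared, 52.0% calcitriol-only and 20.6% unstimulated-only. These classes depend on the definition of sharing. With reciprocal overlap of at least 50% the loci held 2 shared, 10 calcitriol-only and 5 unstimulated-only regions, against 22.3%, 52.2% and 25.5% of the series. With centres within 100 bp the counts at the loci were the same, against 6.18%, 58.5% and 35.3% of the series. Strings raise the count made with 1 bp, since 3 of its 6 calcitriol-only regions are outer pieces of strings. With peaks 10 bp apart joined first, the loci held 4 shared and 3 calcitriol-only sites, the latter being the distal ones, and 0 unstimulated-only. The series-wide shares then were 28.5%, 51.9% and 19.6%. These counts are small, and nothing particular to these loci can be read from them. Unstimulated peaks covered 8500 bp of the windows and calcitriol peaks 24530 bp, a ratio of 2.89, where the whole lists gave 1.66. Covered length sums the widths on which the genes were chosen, so this difference is no finding of its own. The ratio was 3.02 at MYB, 2.28 at HLX and 3.01 at IRF2BP2. Without rows out of position order the MYB ratio was 5.25, that of the 3 loci 3.28 and that of the whole lists 1.90.

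The loci were chosen for wide stretches, so a high share of strings is no finding of its own. In unstimulated cells 5 of the 7 peaks belonged to a string, against 27.5% of the list, and after calcitriol 7 of 12 did, against 20.7%. The strings numbered 4, and HLX had none in either state. The unstimulated string at MYB rests on the row out of position order. The IRF2BP2 string was 1 of 7 in the calcitriol list with 5 or more pieces. At MYB the break positions differed between states, at 2231 bp downstream of the start before ligand and 731 bp after.

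By width the calcitriol peaks of the 3 genes included 3 of the 10 widest of the list, with 3280 bp at HLX (rank 6), 3240 bp upstream of IRF2BP2 (rank 8) and 3190 bp at MYB (rank 10). Peaks of 3000 bp or wider made up 0.879% of the calcitriol list, and the median width was 1430 bp. No unstimulated peak at the same genes was among the 10 widest of its list as deposited. The widest of these unstimulated peaks, at the IRF2BP2 start, had 1860 bp and rank 201 of 1169, with 82.5% of the list narrower. The HLX peak ranked 490 and the wider MYB peak 534. Joining changed this picture. Among 1600 joined calcitriol sites IRF2BP2 ranked 4, MYB 27, HLX 61, the upstream IRF2BP2 site 66 and the downstream one 153. Among 975 joined unstimulated sites IRF2BP2 ranked 39 and MYB 102, but HLX 529 and the downstream IRF2BP2 site 752. The MYB rank rests on the row out of position order: without such rows MYB ranked 509 of 880 joined unstimulated sites, next to HLX at 477, while IRF2BP2 ranked 22. HLX thus ranked near the middle in width before ligand and the downstream IRF2BP2 site lower, with 45.4% and 22.4% of sites narrower. Both were among the wider sites after ligand. Because the genes were chosen for wide peaks in these lists, this contrast is a description and no finding of its own.

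**Figure D3:**
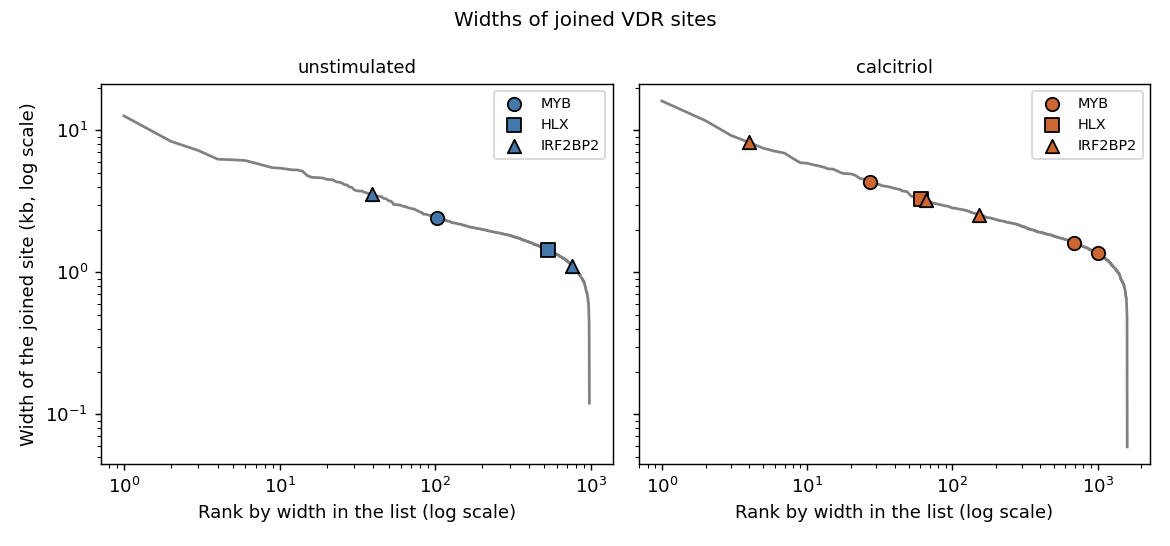
Width of joined VDR sites in kb (log scale) against rank by width in the list (log scale), with the unstimulated list on the left and the calcitriol list on the right; the grey line is all sites and the symbols are the sites of the 3 windows. HLX moves from rank 529 before to rank 61 after ligand, and the string at the IRF2BP2 start from rank 39 to rank 4.

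All 4 shared sites of these loci widened on both sides after calcitriol, so that each unstimulated site lay wholly within its calcitriol counterpart. In the series 546 joined sites overlapped exactly 1 site of the other list, and in 35.0% of them the calcitriol site covered the whole unstimulated one. At 3 of the 4 sites the calcitriol site was at least 2 times as wide, and 9.89% of the 546 were. The exception was MYB at 1.79, and with rows out of position order left out MYB was 3.12 times as wide, so that all 4 sites passed this mark. The share passing it among the 538 sites of the series left without such rows was not determined. The median ratio over the 546 was 1.10, and the median gain 200 bp with quartiles of -239 and 708 bp. The 4130 bp by which the IRF2BP2 string grew upstream was the largest extension on either side among the 546, and its gain of 4660 bp was the second largest. The gains at HLX, MYB and the downstream IRF2BP2 site ranked 21, 18 and 32. Without rows out of position order the MYB gain of 2950 bp ranked 5 of 538, and HLX and the downstream IRF2BP2 site ranked 27 and 37. The upstream side gained more at the start of each of the 3 genes, and the downstream side gained more at the distal IRF2BP2 site. Calcitriol peaks as deposited were wider over the whole lists too, with a median of 1430 against 1340 bp. For joined sites, on which these gains were measured, the medians were closer, at 1519 against 1499 bp. The part of this general difference in the gains was not tested. Gains, ratios and coverage are built from the widths on which the genes were chosen. Their standing among the 546 is therefore a description and no finding of its own.

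**Figure D4:**
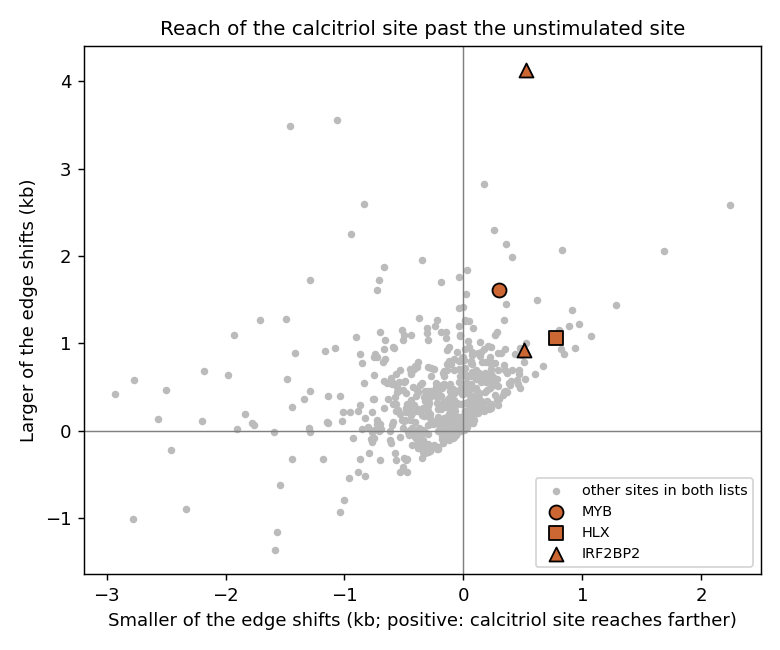
For 546 joined sites overlapping exactly 1 site of the other list, the larger against the smaller of the shifts of the calcitriol edges past the unstimulated edges, in kb (positive values mean that the calcitriol site reaches farther). The 4 sites of the 3 windows have both shifts above 0, and the upstream shift of 4130 bp at the IRF2BP2 start is the highest point.

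Peaks next outside the windows are given as distances from the start site, which exceed 150 kb by the choice of window. Outside the window of MYB the nearest calcitriol peaks began 1069.1 kb downstream and ended 2365.0 kb upstream of the start. For HLX they lay 1078.0 kb downstream and 3509.0 kb upstream. For IRF2BP2 the nearest lay 347.7 kb upstream (235092661 to 235094201, calcitriol-only) and 2804.8 kb downstream. The farthest peak inside the limit is the peak 114.72 kb upstream of IRF2BP2. Unstimulated peaks outside the windows lay 352.2 kb or farther from the starts. For scale, the median peak of each list had 2 peaks, itself included, within 150 kb of its centre. Pieces of the calcitriol string at IRF2BP2 had 7, which 12.6% of calcitriol peaks matched or exceeded, and 5 of these 7 are the string itself. The calcitriol peaks at MYB had 4, which 25.8% matched or exceeded, and 2 of these 4 form its string. The unstimulated peaks at MYB had 2. The HLX peak had only itself in both lists, as did 38.2% of unstimulated and 42.5% of calcitriol peaks.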

How the data were processed

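Peak positions of 2 VDR ChIP-seq samples were used, 1 library each. Alignment used Bowtie and the build hg19, per the submitters' processing notes. The peak caller, its threshold and any use of the IgG sample were not given in the sources used here. The authors deposited chromosome, start and end of each peak with no value per peak; positions are printed as deposited, and width is end minus start. Windows and start sites follow the choice of loci stated in the report. Overlap of at least 1 bp made a peak shared, overlapping peaks of both lists were merged into regions, and peaks of a list 10 bp apart were joined into strings. The members, lists and definitions were chosen with earlier results of these data known. Every peak in the windows is reported, and neighbouring genes are the nearest protein-coding ones by order in RefSeq (GRCh38.p14), used for names only. Functions were tested on simulated peaks. Alternatives covered window size, sharing, joining, row order, start site position and motif mismatch. Python 3.11.15, numpy 2.4.6 and matplotlib 3.10.9 were used.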

Additional observations from a re-analysis of the deposited data

How the results depend on the processing

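No replicate could be left out, and no paired analysis was possible because a single library stands for each state. Of 73 alternative values, 50 stayed in the direction and range of the reported value. Joining peaks 10 bp apart left 4 unstimulated and 7 calcitriol sites, 3 of them calcitriol-only, and a median of 1 calcitriol site within 150 kb of a site. Joined at 10 bp or at up to 1 kb, the widest unstimulated site was 2430 bp at MYB and 3550 bp at IRF2BP2, and the widest calcitriol site at IRF2BP2 8210 bp. Reciprocal overlap of at least 50%, and likewise centres within 100 bp, gave 5 unstimulated-only, 2 shared and 10 calcitriol-only regions, because peaks nested in wider ones no longer count as shared. By the nearest edge in place of the centre, peaks lay 1201 bp (MYB, unstimulated), 1891 bp (HLX, unstimulated) and 831 bp (HLX, calcitriol) downstream of the start. A start site moved by 500 bp turned the sign of 3 centre distances: to -339 bp for MYB after calcitriol, where 161 bp was found, and to -101 and -36 bp for IRF2BP2 before and after ligand, where 399 and 464 bp were found. Leaving out rows out of position order, chosen after seeing the data for this result, moved the width gain at MYB to 2950 bp. Unknown depth limits every width and every class here.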
